A study of Homo sapiens with 15 samples.

Results

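Homologous recombination rebuilds a broken chromosome from its sister copy, and the Fanconi pathway releases the DNA strands that a crosslink ties together. The genes described here are 37 of the 43388 genes counted in these libraries. They were chosen by symbol, as known genes of these pathways, with earlier results of these data known. All 37 had a row. By role, 17 belong to recombination, 12 to the Fanconi pathway, 6 to checkpoint signalling and 2 to mismatch repair.

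RNA was sequenced from A549 cells, an established line from a human lung adenocarcinoma that is used as a model of the alveolar epithelium, to ask how vitamin A bears on the response to excess oxygen. The cells spent 72 h in 95% oxygen (hyperoxia) or 21% oxygen (normoxia), and those with vehicle or ATRA had 24 h of pretreatment before it. All-trans retinoic acid (ATRA), a vitamin A metabolite, was given at 1e-05 mM, with ethanol as the vehicle. There were 2 libraries with vehicle in hyperoxia, 2 with vehicle in normoxia, 3 with ATRA in hyperoxia and 3 with ATRA in normoxia. For 4 more libraries, 2 in hyperoxia and 2 in normoxia, the labels name neither vehicle nor ATRA, and these are called untreated. 1 library with conflicting labels entered no comparison. No label says that the libraries of a group came from separate cultures, so the p-values measure the spread between these libraries, which may be technical.

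In recombination the ends of a break are trimmed to single strands by the MRE11, RAD50 and NBN complex with RBBP8, EXO1, DNA2 and BLM. BRCA1, BARD1, PALB2 and BRCA2 then load the strand-exchange recombinase, which its paralogs and the motor proteins RAD54L and RAD54B assist. At a crosslink the Fanconi core complex and the conjugating enzyme UBE2T attach ubiquitin to FANCD2 and FANCI, while ATR, ATM, CHEK1 and CHEK2 hold the cell cycle, and many of these genes are known to be transcribed mainly in dividing cells.

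Counts on genes ran from 2642377 to 5605072 per library, so that 3 counts, the upper limit that a count of 0 leaves (counting error only), stood for between 0.535 and 1.14 CPM (counts per 1000000). The library hyperoxia untreated 1 stood apart. It had counts for 12657 genes, against 18121 in hyperoxia untreated 2, and 268 of the 9894 genes with a mean above 50 counts were at 0 in it. RAD51AP1, RAD54L and BLM were among the genes at 0 in that library, and the untreated comparison and the models of 14 libraries were also run without it, a choice made after seeing the data. Hyperoxia ATRA 1, hyperoxia ATRA 2 and normoxia ATRA 2 also had few genes detected, 16466, 16465 and 16865, where the other 7 libraries with vehicle or ATRA had between 17661 and 20108. Without these 3, hyperoxia ATRA 3 stands alone against normoxia ATRA 1 and normoxia ATRA 3. Values with ATRA in that setting rest on 1 hyperoxia library and take their spread from the other groups.

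The cell label was checked against markers. CDKN2A, a tumour suppressor gene that A549 cells have lost, was at 0 in all 15 libraries. Keratins, EPCAM and oxidant-defence genes, 9 genes in all, were chosen as markers of this line. They summed to between 10910.2 and 17154 CPM in the 10 libraries with vehicle or ATRA. KRT8 was the most abundant in 5 of these libraries, AKR1B10 in 4 and TXNRD1 in 1. Every hyperoxia sum, at most 12391 CPM, lay below every normoxia sum, at least 13779 CPM, and edgeR called KRT18, KRT8 and KRT19 lower in hyperoxia with vehicle, at -2.13 (SE 0.17), -1.73 (SE 0.17) and -1.58 (SE 0.22), and TXNRD1, a thioredoxin reductase, higher, at 0.81 (SE 0.13). EPCAM, which marks epithelial cells, was low throughout, with counts of 5 and 17 in normoxia with vehicle and 4 and 0 in hyperoxia with vehicle. The 13 markers of blood, vessel, stromal, fat and liver cells summed to between 0.800 and 18.9 CPM, led by CD14 or COL3A1, with 7 to 12 of the 13 at 0 in a library.

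Start regions of 6 members are shown. All but FANCC were picked among members that hold a motif, by the smallest p-values in hyperoxia against normoxia with vehicle. They are 2 recombination genes, 2 Fanconi genes and 1 checkpoint gene, and FANCC had the largest p-value of the 37. BLM, BRCA2 and BRCA1 had smaller p-values than XRCC2 and EXO1 but held no motif, so they are not shown. The display therefore cannot show whether members that fell share motifs. Promoter sequences from RefSeq (GRCh38.p14), 250 bases before to 50 after a gene's start, were found for 33 of the 37 members, and not for RAD54B, DNA2, NBN and FANCI. They were searched on both strands for the E2F forms TTTCCCGC, TTTCGCGC, TTTGCCGC and TTTGGCGC and for the CHR forms TTTGAA and TTCGAA, elements known from genes of the cell cycle. No E2F form contains a CHR form. Capitals mark the matches, and each sequence reads 5′ to 3′ on the strand of its gene. XRCC2 is from chr7:152676092-152676391 on the minus strand, EXO1 from chr1:241847954-241848253 on the plus strand, FANCD2 from chr3:10026187-10026486 on the plus strand, UBE2T from chr1:202341887-202342186 on the minus strand, TOPBP1 from chr3:133661892-133662191 on the minus strand and FANCC from chr9:95317660-95317959 on the minus strand.
XRCC2: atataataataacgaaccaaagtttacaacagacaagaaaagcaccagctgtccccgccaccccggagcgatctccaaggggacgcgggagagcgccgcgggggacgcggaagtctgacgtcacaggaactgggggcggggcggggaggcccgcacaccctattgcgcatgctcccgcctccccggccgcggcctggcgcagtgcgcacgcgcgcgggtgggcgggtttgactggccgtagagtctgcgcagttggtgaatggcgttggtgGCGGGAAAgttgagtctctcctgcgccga
EXO1: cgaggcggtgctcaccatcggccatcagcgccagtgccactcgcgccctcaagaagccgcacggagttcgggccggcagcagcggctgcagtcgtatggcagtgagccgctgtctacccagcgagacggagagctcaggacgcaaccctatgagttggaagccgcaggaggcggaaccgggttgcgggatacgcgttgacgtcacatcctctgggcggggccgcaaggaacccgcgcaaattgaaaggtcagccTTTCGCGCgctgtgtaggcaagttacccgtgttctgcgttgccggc
FANCD2: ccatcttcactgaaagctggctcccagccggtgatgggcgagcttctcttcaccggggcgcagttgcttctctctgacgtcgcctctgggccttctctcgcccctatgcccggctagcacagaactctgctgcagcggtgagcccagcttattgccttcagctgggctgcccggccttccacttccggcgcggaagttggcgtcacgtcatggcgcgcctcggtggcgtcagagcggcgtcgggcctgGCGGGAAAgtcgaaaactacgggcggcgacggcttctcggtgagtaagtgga
UBE2T: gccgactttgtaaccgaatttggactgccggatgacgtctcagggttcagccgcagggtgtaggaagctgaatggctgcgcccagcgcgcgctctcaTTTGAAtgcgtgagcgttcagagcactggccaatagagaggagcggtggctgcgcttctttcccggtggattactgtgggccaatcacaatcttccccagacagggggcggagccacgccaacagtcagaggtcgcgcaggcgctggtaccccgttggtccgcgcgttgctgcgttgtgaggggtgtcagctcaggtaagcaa
TOPBP1: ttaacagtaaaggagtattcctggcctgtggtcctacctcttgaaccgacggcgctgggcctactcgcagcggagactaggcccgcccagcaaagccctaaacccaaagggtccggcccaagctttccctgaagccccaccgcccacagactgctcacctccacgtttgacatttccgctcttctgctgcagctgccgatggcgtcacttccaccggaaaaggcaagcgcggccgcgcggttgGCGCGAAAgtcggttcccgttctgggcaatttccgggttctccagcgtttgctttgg
FANCC: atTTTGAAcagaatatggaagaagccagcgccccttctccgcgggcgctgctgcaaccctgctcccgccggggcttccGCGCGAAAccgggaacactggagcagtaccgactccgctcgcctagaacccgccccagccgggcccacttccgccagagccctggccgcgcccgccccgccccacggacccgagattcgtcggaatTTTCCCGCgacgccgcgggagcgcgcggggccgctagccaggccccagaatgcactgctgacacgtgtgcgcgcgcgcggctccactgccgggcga

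In FANCD2 the E2F form begins 2 bases before the start and in TOPBP1 7 bases before it, while in EXO1 it begins 4 bases and in XRCC2 21 bases after it. UBE2T holds a CHR form 153 bases before its start and no E2F form in this window. FANCC holds 2 E2F forms and 1 CHR form at 1 of its 2 starts. Among the 33 members, 9 (27.3%) held an E2F form at any start, namely XRCC2, EXO1, FANCA, FANCC, FANCD2, CLSPN, TOPBP1, MSH6 and PMS2, against 6.50% of the 10964 tested genes with a promoter. A CHR form was held by 4 members (12.1%), BRIP1, FANCC, UBE2T and ATM, against 15.5% of the tested genes. Over all 35116 promoters the shares were 3.31% for E2F forms and 16.4% for CHR forms. A match is a description of the letters and no evidence of binding.

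Several recombination and Fanconi genes fell in hyperoxia. In hyperoxia against normoxia with vehicle, 12 of the 37 members were called lower, that is, with an adjusted p-value under 0.05 in edgeR's quasi-likelihood test, and the background for that direction was 8.81% of the 14957 genes tested. By role these were 4 of 17 recombination genes, 5 of 12 Fanconi genes, 2 of 6 checkpoint genes and 1 of 2 mismatch repair genes. Members called higher numbered 0 in edgeR, with 1, FANCL, at an unadjusted p under 0.05 and 0 in DESeq2, and edgeR called 8.68% of all tested genes higher. The median log2 fold change was -0.60 over the members and 0.01 over all genes tested, and 32 of the 37 members lay below 0. Since the members were chosen with earlier results of these data known, these counts beside the background describe the list and do not test it. In these bulk samples fewer cells in the phases that use these genes and less RNA per cell cannot be told apart.

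All 37 members passed the filter on low counts. Each of the 5 hyperoxia libraries was below each of the 5 normoxia libraries, vehicle and ATRA together, for 18 members, against 10.4% of all tested genes, and above for 0 members, against 10.5%.

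**Figure D1:**
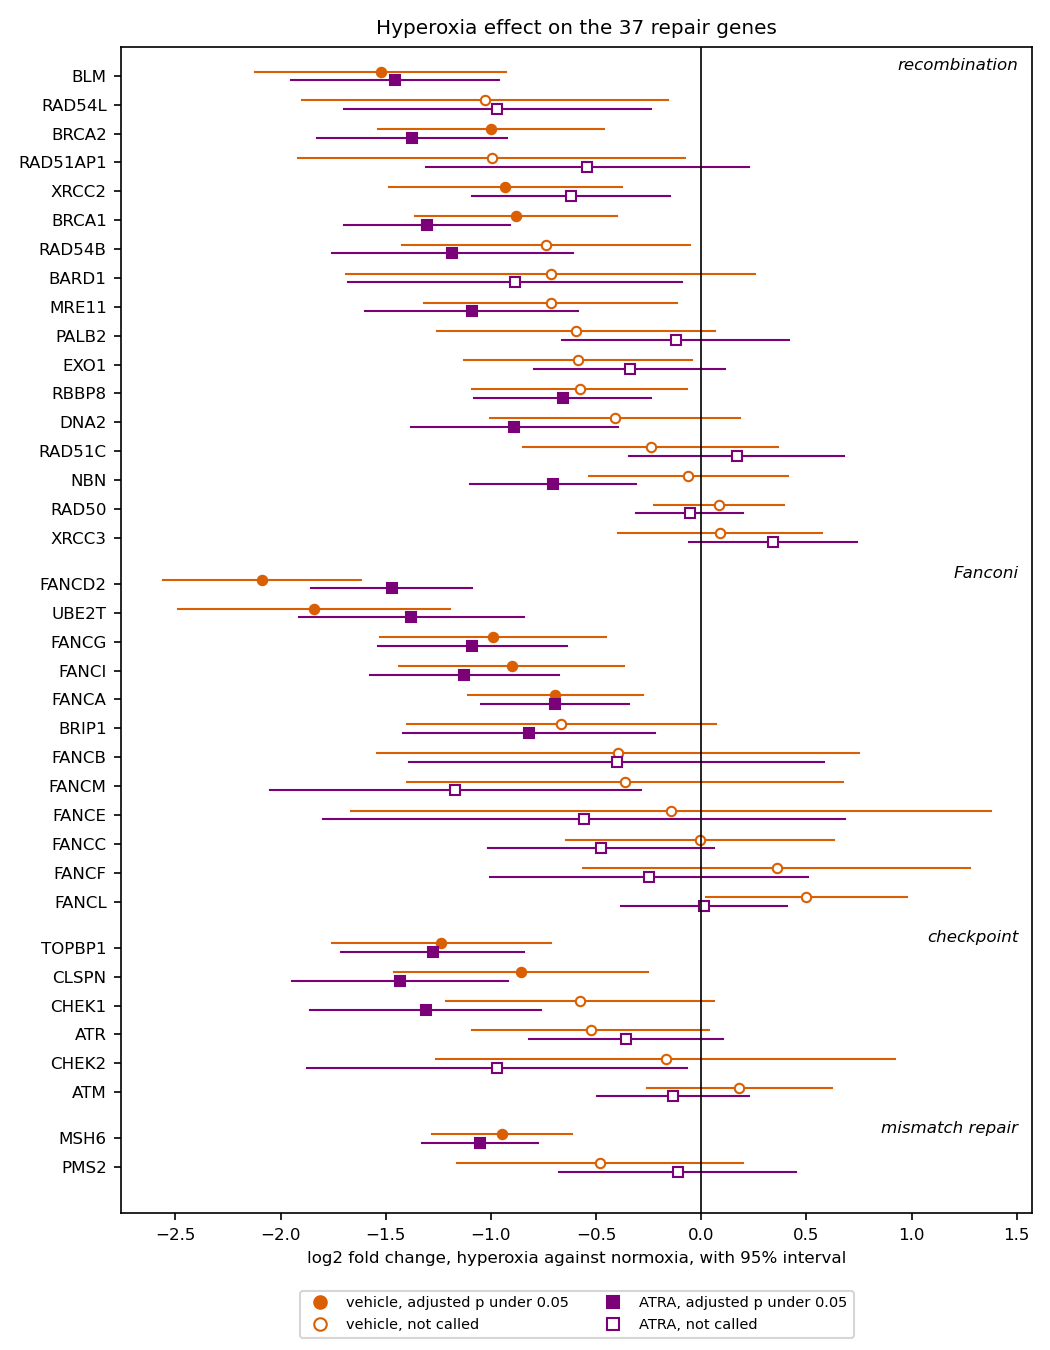
Log2 fold change in hyperoxia against normoxia for each of the 37 members, with vehicle (circles) and with ATRA (squares), lines giving 95% intervals and filled symbols an adjusted p-value under 0.05. The filled symbols all lie below 0, and FANCD2 and UBE2T lie farthest to the left with vehicle, at -2.09 and -1.84.

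With 2 libraries a group, the vehicle count leaned on each of 3 libraries. It was 7 without hyperoxia vehicle 1, 5 without hyperoxia vehicle 2 and 5 without normoxia vehicle 1, where 4.85%, 4.69% and 5.14% of all genes were called lower. The lone library left is assumed to vary like the other groups. BLM, FANCD2, UBE2T, TOPBP1 and MSH6 were called lower whichever of the 10 libraries was left out. Other settings moved calls too. In the model of 14 libraries in 6 groups BLM, XRCC2, FANCG, FANCI and CLSPN lost their calls with vehicle, while the share of all genes called lower went to 4.64%. Without hyperoxia untreated 1 the same model, of 13 libraries, called 11 of the 12, all but CLSPN, and 8.03% of all genes lower. DESeq2 did not call FANCI. With only the vehicle groups in the model 20 members were called lower, the 12 and also ATR, CHEK1, EXO1, MRE11, RAD51AP1, RAD54B, RAD54L and RBBP8, and the share of all genes called lower was 16.6%.

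End resection opens recombination. Of its 7 genes edgeR called 1, BLM, lower with vehicle, where 8.81% of all genes were called lower, and 5 lower with ATRA, where 11.3% were. With only the vehicle groups in the model MRE11, RBBP8 and EXO1 were called lower as well. BLM, a helicase that works in resection and later in the dissolution of joint molecules, was at 36.3 and 29.3 CPM in normoxia with vehicle, 10.7 and 11.9 CPM in hyperoxia with vehicle, 33.0, 33.9 and 33.6 CPM in normoxia with ATRA and 12.2, 14.6 and 10.2 CPM in hyperoxia with ATRA. Every hyperoxia library was below every normoxia library, with no more than 14.6 CPM on the side of hyperoxia and no less than 29.3 CPM on that of normoxia. With vehicle BLM had a log2 fold change of -1.52 (SE 0.29) (edgeR adjusted p = 6.3e-04), and with ATRA of -1.45 (SE 0.24) (edgeR adjusted p = 1.2e-04). In the model of 14 libraries in 6 groups BLM lost both calls, at edgeR adjusted p-values of 0.22 with vehicle and 0.12 with ATRA, and with vehicle and untreated pooled it lost that with ATRA, at 0.13. Both models hold hyperoxia untreated 1, where BLM was at 0. Without that library BLM was called in both comparisons in both models, and in the model of 13 libraries its edgeR adjusted p was 3.8e-04 with vehicle and 5.6e-05 with ATRA.

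MRE11, the nuclease that begins resection, was at 36.3 and 27.3 CPM in normoxia with vehicle, 21.6 and 17.1 CPM in hyperoxia with vehicle, 29.1, 27.6 and 38.5 CPM in normoxia with ATRA and 16.3, 11.9 and 15.9 CPM in hyperoxia with ATRA. The groups did not overlap. For MRE11 the fitted log2 fold changes were -0.72 (SE 0.29) and -1.09 (SE 0.24), vehicle first, at edgeR adjusted p-values of 0.098 and 0.0023. With only the groups compared in the model the call with vehicle was made too (edgeR adjusted p = 0.017). The difference between the effects with ATRA and with vehicle, -0.38 (SE 0.38), had an edgeR adjusted p-value of 0.90.

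The partners of MRE11 gave other values. RAD50, the ATPase that tethers the broken ends, was at 149.5 and 144 CPM in normoxia with vehicle, 158 and 153 CPM in hyperoxia with vehicle, 155, 150.1 and 136 CPM in normoxia with ATRA and 139.8, 122 and 161 CPM in hyperoxia with ATRA, with the hyperoxia libraries slightly above those of normoxia with vehicle and overlapping them with ATRA. Its log2 fold change was 0.08 (SE 0.15) with vehicle (95% interval -0.22 to 0.39) and -0.06 (SE 0.12) with ATRA (-0.31 to 0.20). NBN, the adaptor that brings ATM to breaks, stood at -0.06 (SE 0.23) with vehicle and was called lower with ATRA at -0.71 (SE 0.19) (edgeR adjusted p = 0.0097), and the difference, -0.64 with an interval of -1.26 to -0.03, was not called in edgeR (adjusted p = 0.67). RBBP8, the cofactor of MRE11, and DNA2, a nuclease of long-range resection, were each called lower with ATRA, at -0.66 (SE 0.20) and -0.89 (SE 0.24) (edgeR adjusted p = 0.021 and 0.0089). With vehicle they stood at -0.58 and -0.41, without a call. For both genes each of the 5 hyperoxia libraries was below each of the 5 normoxia libraries. DNA2 was called lower with vehicle and untreated pooled, at -0.83, or -0.69 without hyperoxia untreated 1. Without normoxia ATRA 2 NBN lost its call with ATRA, at an edgeR adjusted p of 0.053. Without the 3 ATRA libraries with few genes detected NBN stood at -0.22, with an edgeR adjusted p of 0.49. RBBP8 lost its call with ATRA when hyperoxia ATRA 1, normoxia ATRA 2 or hyperoxia ATRA 3 was left out, at edgeR adjusted p-values of 0.052, 0.085 and 0.063. The same call was lost in the model of 14 libraries, with vehicle and untreated pooled, and without the 3 ATRA libraries with few genes detected, at edgeR adjusted p-values of 0.25, 0.25 and 0.068. In the first 2 of these models it stood once hyperoxia untreated 1 was left out, at 0.019 and 0.011 in edgeR. EXO1, the other long-range nuclease, was called in neither comparison, at -0.59 (SE 0.26) and -0.34 (SE 0.22). With vehicle EXO1 stood at -0.94 without hyperoxia vehicle 1 and at -0.33 without hyperoxia vehicle 2.

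Of the BRCA mediators, BRCA1 and BRCA2 were called lower by edgeR in both comparisons. BRCA1, which promotes resection and recruits PALB2, was at 101 and 85.7 CPM in normoxia with vehicle, 51.4 and 49.8 CPM in hyperoxia with vehicle, 103, 159 and 94.1 CPM in normoxia with ATRA and 41.2, 41.2 and 60.6 CPM in hyperoxia with ATRA. Hyperoxia libraries did not pass 60.6 CPM and normoxia libraries did not fall under 85.7 CPM, with normoxia ATRA 2 the highest. Its log2 fold change in hyperoxia was -0.88 (SE 0.23) with vehicle (edgeR adjusted p = 0.0098) and -1.30 (SE 0.19) with ATRA (edgeR adjusted p = 3.2e-05). BRCA1 lost its call with vehicle when normoxia vehicle 1 or hyperoxia vehicle 2 was left out, at edgeR adjusted p-values of 0.081 and 0.071. With ATRA its log2 fold change was -0.70 without the 3 ATRA libraries with few genes detected, still called lower by edgeR.

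BRCA2, which loads the recombinase on resected DNA, was at 41.2 and 40.2 CPM in normoxia with vehicle, 20.8 and 19.9 CPM in hyperoxia with vehicle, 37.2, 47.4 and 43.8 CPM in normoxia with ATRA and 14.3, 13.9 and 20.9 CPM in hyperoxia with ATRA. The vehicle libraries of a group lay within about 1 CPM of each other, and the oxygen groups did not overlap. With vehicle the 95% interval of its log2 fold change was -1.54 to -0.46, and with ATRA the log2 fold change was -1.38 (SE 0.22), at edgeR adjusted p-values of 0.0089 and 7.9e-05. BRCA2 lost its call with vehicle when hyperoxia vehicle 1, normoxia vehicle 1, hyperoxia vehicle 2 or normoxia vehicle 2 was left out, at edgeR adjusted p-values of 0.060, 0.054, 0.088 and 0.052.

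BARD1, the obligate partner of BRCA1, stood at -0.72 (SE 0.47) with vehicle and -0.89 (SE 0.38) with ATRA, and PALB2, which joins BRCA1 to BRCA2, at -0.60 (SE 0.32) and -0.12 (SE 0.26). For BARD1 hyperoxia ATRA 2, at 16.2 CPM, reached into the normoxia range of 13.2 to 23.5 CPM. Without hyperoxia ATRA 2 BARD1 gained a call with ATRA, at an edgeR adjusted p of 0.019. A replicate block of 3 library sets, read from the numbers in the titles, also gave BARD1 that call, at -0.98 (edgeR adjusted p = 0.048). Leaving out hyperoxia ATRA 1 brought it to -0.47 (edgeR adjusted p = 0.32). For PALB2 the 4 vehicle libraries were separate while the ATRA libraries overlapped.

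Of the recombinase paralogs edgeR called XRCC2 lower, with vehicle. It was at 44.7 and 37.7 CPM in normoxia with vehicle, 21.3 and 21.7 CPM in hyperoxia with vehicle, 28.6, 24.2 and 28.1 CPM in normoxia with ATRA and 19.6, 13.1 and 19.2 CPM in hyperoxia with ATRA. Hyperoxia libraries were below normoxia libraries throughout, but normoxia with ATRA lay between the others. The log2 fold change was -0.93 (SE 0.27) with vehicle and -0.62 (SE 0.23) with ATRA, with edgeR adjusted p-values of 0.017 and 0.053. XRCC2 lost its call with vehicle when hyperoxia vehicle 1, normoxia vehicle 1 or hyperoxia vehicle 2 was left out, at edgeR adjusted p-values of 0.12, 0.15 and 0.12. Without hyperoxia ATRA 1 XRCC2 gained a call with ATRA, at an edgeR adjusted p of 0.040. The edgeR adjusted p with vehicle was 0.062 in the model of 14 libraries and 0.018 in that of 13 without hyperoxia untreated 1, and with ATRA it was 0.048 with RLE size factors. RAD51C, part of both paralog complexes, was at -0.24 (SE 0.29) and 0.17 (SE 0.25), and XRCC3, the partner of RAD51C, at 0.09 (SE 0.23) and 0.34 (SE 0.19), and neither was called.

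RAD54L, a motor protein that works with the recombinase in strand exchange, was at 19.6 and 18.4 CPM in normoxia with vehicle, 11.5 and 7.29 CPM in hyperoxia with vehicle, 18.9, 16.0 and 15.7 CPM in normoxia with ATRA and 4.54, 12.7 and 9.50 CPM in hyperoxia with ATRA. The 5 hyperoxia libraries were below the 5 normoxia libraries. With vehicle RAD54L had a log2 fold change of -1.03 (SE 0.42) (edgeR adjusted p = 0.10), and with ATRA of -0.97 (SE 0.35) (edgeR adjusted p = 0.051). Neither value passed the threshold. Without hyperoxia ATRA 1 RAD54L gained a call with vehicle, at an edgeR adjusted p of 0.032. Without hyperoxia ATRA 2 RAD54L gained a call with ATRA, at an edgeR adjusted p of 0.015. Without hyperoxia ATRA 1 its log2 fold change with ATRA shrank to -0.62 (edgeR adjusted p = 0.18), and in the model of 14 libraries its edgeR adjusted p with ATRA was 0.40, against 0.041 in that of 13. RAD54L also gained a call with vehicle with only the groups compared in the model (edgeR adjusted p = 0.0091) and with ATRA with RLE size factors (edgeR adjusted p = 0.049). RAD54B, its paralog, was called lower with ATRA at -1.18 (SE 0.28), with an edgeR adjusted p of 0.0034, and stood at -0.74 (SE 0.33) with vehicle. RAD51AP1, which stimulates strand invasion, had 95% intervals of -1.92 to -0.08 with vehicle and -1.31 to 0.23 with ATRA without a call, on counts between 23 and 89 per library. Its value with ATRA was -1.07 without hyperoxia ATRA 3 (edgeR adjusted p = 0.060) and -0.18 without hyperoxia ATRA 1. Without the 3 ATRA libraries with few genes detected that value turned to 0.15.

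With vehicle, FANCD2 and UBE2T had the largest log2 differences of the 37 members. FANCD2, which is ubiquitinated at crosslinks, was at 89.1 and 66.1 CPM in normoxia with vehicle, 17.1 and 19.0 CPM in hyperoxia with vehicle, 57.4, 63.4 and 70.3 CPM in normoxia with ATRA and 21.2, 26.2 and 22.1 CPM in hyperoxia with ATRA. Hyperoxia libraries lay between 17.1 and 26.2 CPM and normoxia libraries between 57.4 and 89.1 CPM. For FANCD2 the fitted log2 fold changes were -2.09 (SE 0.23) and -1.47 (SE 0.18), vehicle first, at edgeR adjusted p-values of 8.7e-07 and 5.0e-06. That was 4.25-fold and 2.77-fold lower. Its E2F form lies next to the start in the promoter shown above, and whether that form bears on the fall was not tested.

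UBE2T, the enzyme that attaches this ubiquitin, was at 40.2 and 33.9 CPM in normoxia with vehicle, 11.5 and 9.24 CPM in hyperoxia with vehicle, 26.5, 32.0 and 24.9 CPM in normoxia with ATRA and 9.07, 9.24 and 13.5 CPM in hyperoxia with ATRA. No hyperoxia library reached the lowest normoxia library. Its log2 fold change in hyperoxia was -1.84 (SE 0.31) with vehicle (edgeR adjusted p = 1.9e-04) and -1.38 (SE 0.26) with ATRA (edgeR adjusted p = 4.5e-04). FANCI, the partner of FANCD2 in the clamp, was at 150.2 and 138 CPM in normoxia with vehicle, 78.1 and 76.1 CPM in hyperoxia with vehicle, 126, 153 and 124 CPM in normoxia with ATRA and 32.3, 75.8 and 79.6 CPM in hyperoxia with ATRA. Hyperoxia ATRA 1 was the lowest by a wide margin, and the groups did not overlap. The log2 fold change was -0.90 (SE 0.26) with vehicle and -1.13 (SE 0.22) with ATRA, with edgeR adjusted p-values of 0.017 and 5.8e-04. FANCI lost its call with vehicle when hyperoxia vehicle 1, normoxia vehicle 1 or hyperoxia vehicle 2 was left out, at edgeR adjusted p-values of 0.075, 0.085 and 0.096. DESeq2 did not call it with vehicle (adjusted p = 0.10, against edgeR's value above), nor did edgeR in the model of 14 libraries (adjusted p = 0.062), while edgeR did in that of 13 libraries (adjusted p = 0.014). With ATRA its log2 fold change was -0.65 without the 3 ATRA libraries with few genes detected, still with a call.

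Of the 8 members of the core complex, FANCA and FANCG, which sit together in a subcomplex, were called lower by edgeR in both comparisons. EdgeR called the other 6 in neither, while DESeq2 called 1 of them, FANCM, lower with ATRA. FANCA was at 63.9 and 70.5 CPM in normoxia with vehicle, 41.6 and 41.8 CPM in hyperoxia with vehicle, 61.4, 49.6 and 60.6 CPM in normoxia with ATRA and 33.0, 41.6 and 32.3 CPM in hyperoxia with ATRA. The vehicle libraries of hyperoxia were within 1 CPM of each other, and no levels overlapped between the oxygen groups. With vehicle FANCA had a log2 fold change of -0.69 (SE 0.20) (edgeR adjusted p = 0.019), and with ATRA of -0.70 (SE 0.17) (edgeR adjusted p = 0.0046). FANCA lost its call with vehicle when hyperoxia vehicle 1, normoxia vehicle 1, hyperoxia vehicle 2 or normoxia vehicle 2 was left out, at edgeR adjusted p-values of 0.11, 0.056, 0.12 and 0.16. FANCG was at 57.6 and 40.2 CPM in normoxia with vehicle, 26.4 and 22.6 CPM in hyperoxia with vehicle, 38.8, 53.4 and 41.2 CPM in normoxia with ATRA and 20.1, 25.0 and 18.0 CPM in hyperoxia with ATRA. Again no hyperoxia library reached the normoxia range. For FANCG the fitted log2 fold changes were -0.99 (SE 0.26) and -1.09 (SE 0.22), vehicle first, at edgeR adjusted p-values of 0.0094 and 8.4e-04. FANCG lost its call with vehicle when normoxia vehicle 1 or hyperoxia vehicle 2 was left out, at edgeR adjusted p-values of 0.16 and 0.12. In the model of 14 libraries its edgeR adjusted p with vehicle was 0.065, and in that of 13 libraries 0.0089.

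FANCL, the ubiquitin ligase of the complex, was the member at an unadjusted p under 0.05 in the other direction. Its vehicle libraries stood at 26.2 and 30.5 CPM in normoxia and 40.8 and 40.0 CPM in hyperoxia, a log2 fold change of 0.50 (SE 0.23) with an edgeR adjusted p of 0.15. Both hyperoxia libraries were thus above both normoxia libraries, and without the 3 ATRA libraries with few genes detected FANCL was called higher with vehicle. With ATRA it was 0.01 (SE 0.19), and the levels overlapped. FANCB, FANCE and FANCF had few counts, from 13 to 53, 3 to 39 and 17 to 84 per library, and their intervals with vehicle, -1.54 to 0.75, -1.66 to 1.38 and -0.56 to 1.28, did not exclude a 2-fold difference in at least 1 direction. FANCC stood at -0.01 (SE 0.31) with vehicle and -0.48 (SE 0.26) with ATRA, the latter -0.72 without hyperoxia ATRA 3 (edgeR adjusted p = 0.081). FANCM, the translocase that senses stalled forks, stood at -0.36 (SE 0.50) and -1.17 (SE 0.42), with 4 counts in hyperoxia ATRA 2 against at least 46 in the other 9 libraries. EdgeR did not call it with all 10 libraries, but DESeq2 called it lower with ATRA (adjusted p = 0.036, where edgeR gave 0.052), and so did edgeR with RLE size factors, without a filter on low counts, or in a model of 13 libraries. FANCM gained a call with ATRA when hyperoxia ATRA 1, hyperoxia ATRA 3 or normoxia ATRA 3 was left out, at edgeR adjusted p-values of 0.034, 0.039 and 0.045. Leaving out normoxia ATRA 2 shrank its value with ATRA to -0.76 (edgeR adjusted p = 0.28). Without the 3 ATRA libraries with few genes detected FANCM stood at -0.28 with ATRA (edgeR adjusted p = 0.64). BRIP1, the helicase that binds BRCA1, was called lower with ATRA at -0.82 (SE 0.29), with an edgeR adjusted p of 0.045, and stood at -0.67 (SE 0.35) with vehicle. BRIP1 lost its call with ATRA when hyperoxia ATRA 1, normoxia ATRA 1, hyperoxia vehicle 1, normoxia vehicle 1, normoxia ATRA 2, hyperoxia vehicle 2, normoxia ATRA 3 or normoxia vehicle 2 was left out, at edgeR adjusted p-values of 0.17, 0.072, 0.053, 0.053, 0.13, 0.052, 0.074 and 0.053. With ATRA the log2 fold change of BRIP1 was -0.50 without hyperoxia ATRA 1 and -0.31 without the 3 ATRA libraries with few genes detected (edgeR adjusted p = 0.52). The call was lost as well in the model of 14 libraries, with vehicle and untreated pooled, and with only the groups compared, at edgeR adjusted p-values of 0.20, 0.17 and 0.077. The first 2 of these models called BRIP1 once hyperoxia untreated 1 was left out, at edgeR adjusted p-values of 0.037 and 0.027.

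**Figure D2:**
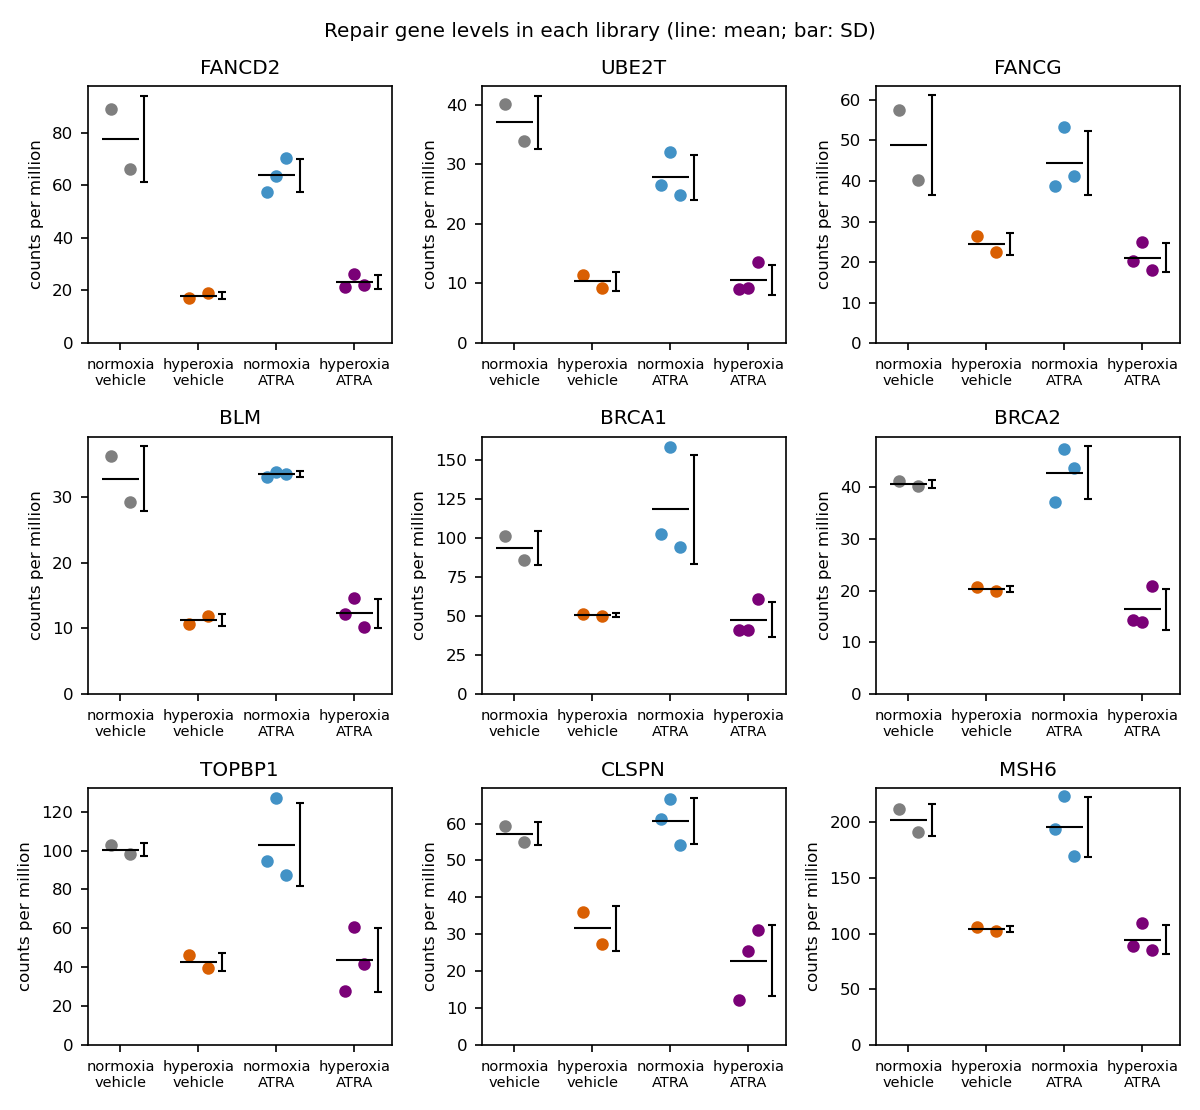
CPM in each of the 10 libraries with vehicle or ATRA for 9 members called lower in both comparisons, with the mean of a group as a line and the SD as a bar beside it. In each panel the 5 hyperoxia libraries lie below the 5 normoxia libraries.

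Of the 6 checkpoint genes, the mediators TOPBP1 and CLSPN were called lower by edgeR in both comparisons and CHEK1 with ATRA. TOPBP1, which activates ATR, was at 103 and 98.2 CPM in normoxia with vehicle, 46.1 and 39.4 CPM in hyperoxia with vehicle, 94.4, 127 and 87.3 CPM in normoxia with ATRA and 28.0, 60.8 and 41.8 CPM in hyperoxia with ATRA. The oxygen groups were separate, although hyperoxia with ATRA spread over more than a 2-fold range. Its log2 fold change in hyperoxia was -1.24 (SE 0.25) with vehicle (edgeR adjusted p = 0.0013) and -1.28 (SE 0.21) with ATRA (edgeR adjusted p = 1.2e-04).

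CLSPN, the adaptor through which ATR reaches CHEK1, was at 59.4 and 55.0 CPM in normoxia with vehicle, 36.0 and 27.4 CPM in hyperoxia with vehicle, 61.4, 66.6 and 54.3 CPM in normoxia with ATRA and 12.2, 25.4 and 31.1 CPM in hyperoxia with ATRA. Hyperoxia libraries were all below 54.3 CPM, the lowest normoxia value. The log2 fold change was -0.86 (SE 0.29) with vehicle and -1.43 (SE 0.25) with ATRA, with edgeR adjusted p-values of 0.045 and 2.0e-04. CLSPN lost its call with vehicle when normoxia ATRA 1, hyperoxia vehicle 1, normoxia vehicle 1, hyperoxia vehicle 2 or normoxia vehicle 2 was left out, at edgeR adjusted p-values of 0.063, 0.071, 0.17, 0.31 and 0.12. In the models of 14 and 13 libraries its edgeR adjusted p with vehicle was 0.24 and 0.053. With vehicle and untreated pooled CLSPN stood at -1.31, or -1.06 without hyperoxia untreated 1, and, with ATRA, at -0.89 without the 3 ATRA libraries with few genes detected, all still called lower by edgeR.

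CHEK1, the effector kinase of ATR, was at 39.5 and 40.2 CPM in normoxia with vehicle, 30.1 and 23.6 CPM in hyperoxia with vehicle, 29.1, 43.9 and 38.8 CPM in normoxia with ATRA and 13.6, 8.85 and 21.6 CPM in hyperoxia with ATRA. Hyperoxia was below normoxia in both pairs of groups, although hyperoxia vehicle 1 lay within the range of normoxia with ATRA. With vehicle CHEK1 had a log2 fold change of -0.57 (SE 0.31) (edgeR adjusted p = 0.23), and with ATRA of -1.31 (SE 0.26) (edgeR adjusted p = 9.7e-04). CHEK1 was called lower with vehicle with only the groups compared in the model (edgeR adjusted p = 0.022), and without the 3 ATRA libraries with few genes detected it gained that call and lost the one with ATRA, where its log2 fold change was -0.65 (edgeR adjusted p = 0.032 and 0.092). The difference between these effects was -0.74 (SE 0.40) with an interval of -1.58 to 0.10 (edgeR adjusted p = 0.77). CHEK2, the effector of ATM, had between 13 and 68 counts per library and stood at -0.17 (SE 0.53) and -0.97 (SE 0.43) without a call. The value with ATRA was -0.26 without the 3 ATRA libraries with few genes detected. The value with vehicle moved to -1.39 without hyperoxia vehicle 2 and to -0.84 with vehicle and untreated pooled.

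ATR, the kinase of stalled forks, was at 52.4 and 61.4 CPM in normoxia with vehicle, 31.7 and 47.1 CPM in hyperoxia with vehicle, 48.8, 86.0 and 43.8 CPM in normoxia with ATRA and 53.2, 41.6 and 43.2 CPM in hyperoxia with ATRA. Levels were separate with vehicle and overlapped with ATRA. For ATR the fitted log2 fold changes were -0.53 (SE 0.27) and -0.36 (SE 0.22), vehicle first, at edgeR adjusted p-values of 0.21 and 0.27. ATR was called lower with vehicle at edgeR adjusted p-values of 0.022 with only the groups compared in the model, 0.047 with vehicle and untreated pooled (0.013 without hyperoxia untreated 1) and 0.030 without the 3 ATRA libraries with few genes detected. Single libraries moved it both ways, to -0.30 (edgeR adjusted p = 0.72) without hyperoxia vehicle 1 and -0.88 (0.13) without hyperoxia vehicle 2. Over all settings its value with ATRA ran from -0.56 to 0.00, with no call. ATM, the kinase of broken ends, stood at 0.18 (SE 0.21) with vehicle (95% interval -0.26 to 0.62) and -0.13 (SE 0.17) with ATRA (-0.49 to 0.23), both intervals within a 2-fold difference.

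In mismatch repair the 2 members differed in their calls. MSH6, which recognises mismatched bases, was at 212 and 192 CPM in normoxia with vehicle, 106 and 103 CPM in hyperoxia with vehicle, 194, 224 and 169 CPM in normoxia with ATRA and 88.6, 110.1 and 85.7 CPM in hyperoxia with ATRA. All 5 hyperoxia libraries were below all 5 normoxia libraries. Its log2 fold change in hyperoxia was -0.95 (SE 0.16) with vehicle (edgeR adjusted p = 2.0e-04) and -1.05 (SE 0.13) with ATRA (edgeR adjusted p = 5.3e-06). PMS2, a subunit of the nuclease that cuts the new strand, was at 29.3 and 23.6 CPM in normoxia with vehicle, 22.7 and 15.3 CPM in hyperoxia with vehicle, 18.6, 25.7 and 21.5 CPM in normoxia with ATRA and 25.6, 21.6 and 13.5 CPM in hyperoxia with ATRA. The vehicle groups were separate by less than 1 CPM and the ATRA groups overlapped. The log2 fold change was -0.48 (SE 0.33) with vehicle and -0.11 (SE 0.27) with ATRA, with edgeR adjusted p-values of 0.37 and 0.82. With vehicle it reached -0.81 without hyperoxia vehicle 1. With ATRA it ran from -0.57 without the 3 ATRA libraries with few genes detected to 0.10 without hyperoxia ATRA 3. Whether MSH6 and PMS2 differ in their response was not tested.

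The comparison with ATRA, which shares no library with that of vehicle, gave more calls. With ATRA, 18 of the 37 members were called lower in hyperoxia against normoxia, where the background was 11.3% of all genes, and 0 were called higher in edgeR, with 0 at an unadjusted p under 0.05 and 0 in DESeq2, against 11.4%. By role they were 8 recombination, 6 Fanconi, 3 checkpoint and 1 mismatch repair genes. The median log2 fold change was -0.82 over the members and 0.01 over all genes. With 3 libraries a group, the median SE of a member was 0.24, against 0.29 with vehicle. Leaving out the 3 ATRA libraries with few genes detected, a choice made after seeing the data, put the members' median at -0.57. That value sets hyperoxia ATRA 3 alone against normoxia ATRA 1 and normoxia ATRA 3.

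Members called lower in both comparisons numbered 11, which was 91.7% of the 12 with vehicle and 61.1% of the 18 with ATRA, and 6.34% of all tested genes were called lower in both. They were BRCA1, BRCA2, BLM, FANCA, FANCD2, FANCG, FANCI, UBE2T, CLSPN, TOPBP1 and MSH6. By edgeR with all 10 libraries, XRCC2 was called with vehicle only, and MRE11, NBN, RBBP8, DNA2, RAD54B, BRIP1 and CHEK1 with ATRA only.

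**Figure D3:**
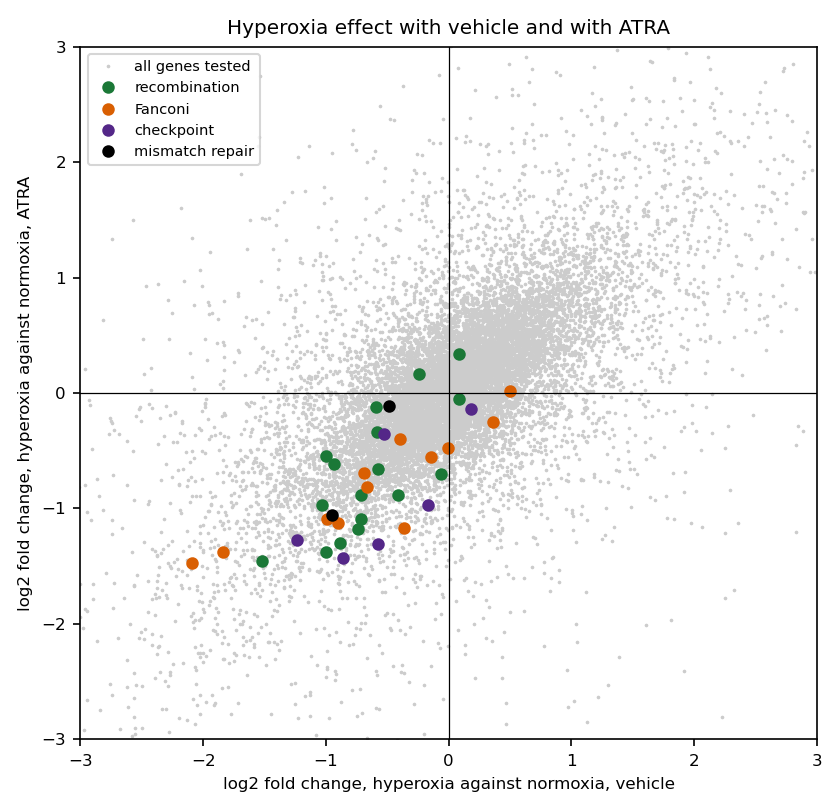
Log2 fold change in hyperoxia against normoxia with vehicle (horizontal axis) and with ATRA (vertical axis) for the 37 members, coloured by role, over all 14957 tested genes in grey, those beyond 3 on either axis not drawn. Most members lie to the lower left, and FANCL, RAD50, XRCC3, ATM and FANCF lie to the right of 0.

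ATRA itself left no member called at either oxygen level. In normoxia, 0 of the 37 members were called with ATRA against vehicle in edgeR, with 1 at an unadjusted p under 0.05 and 0 in DESeq2, against 1.25% of all genes called in either direction. In hyperoxia it was again 0 in edgeR, with 2 at an unadjusted p under 0.05 and 0 in DESeq2, against 2.21%. These comparisons share the vehicle and ATRA libraries with those above. A share of 0 among 37 genes differs little from so low a background.

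The members nearest to a call were XRCC2 in normoxia, at -0.60 (SE 0.24) (edgeR adjusted p = 0.40), and CHEK1 in hyperoxia, at -0.83 (SE 0.29) (edgeR adjusted p = 0.17). CHEK1 passed the threshold in hyperoxia, the only member to do so, when hyperoxia ATRA 3 was left out, at an edgeR adjusted p of 0.029. Over the members the median log2 difference with ATRA was 0.03 in normoxia and -0.14 in hyperoxia, beside 0.00 and 0.00 over all genes. The intervals show what size of effect remained possible. For BRCA1 with ATRA it was -0.09 to 0.77 in normoxia and -0.53 to 0.37 in hyperoxia, and for MSH6 -0.34 to 0.25 and -0.46 to 0.16.

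The interaction asks whether the hyperoxia effect differed with ATRA. In edgeR 0 of the 37 members were called, 2 stood at an unadjusted p under 0.05, and 0.140% of all genes were called. DESeq2 also called 0, among the 5 members for which it gave an adjusted p. The larger count with ATRA is therefore not shown to be a larger effect. FANCD2 had 0.62 (SE 0.29), the smaller fall with ATRA, and NBN -0.64 (SE 0.30), the larger fall with ATRA, at edgeR adjusted p-values of 0.68 and 0.67.

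The 4 untreated libraries gave another hyperoxia comparison that shares no library with the others, in a model of 14 libraries in 6 groups. With all 4, 14 of the 37 members were called lower, against 7.58% of the 15339 genes tested, and 0 higher in edgeR, with 1 at an unadjusted p under 0.05 and 0 in DESeq2, against 7.57%. Without hyperoxia untreated 1 it was 11 lower, against 5.14% of 16503 genes, and 0 higher in edgeR, with 0 at an unadjusted p under 0.05, against 5.36%. This latter comparison sets 1 hyperoxia library against 2 and takes its spread from the other groups. The median log2 fold change of the members was -0.81 with that library and -0.89 without it, beside -0.10 and -0.03 over all genes.

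The count was 21 when hyperoxia untreated 2 was left out instead, where 29.1% of all genes were called lower and their median was -0.46, and 4 without normoxia untreated 1, where 3.27% of all genes were. With only these 4 libraries in the model it was 0, in edgeR, and 58 genes were called in all, 0.130% of those tested being lower.

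FANCD2 was at 78.0 and 78.9 CPM in normoxia and 11.0 and 25.4 CPM in hyperoxia, BRCA1 at 115 and 93.6 CPM in normoxia and 30.2 and 43.6 CPM in hyperoxia, and TOPBP1 at 112 and 97.2 CPM in normoxia and 38.2 and 41.7 CPM in hyperoxia, with the libraries of a group in their numbered order and a scaling of 14 libraries. Both hyperoxia libraries were below both normoxia libraries for each of these genes. Without hyperoxia untreated 1 the log2 fold changes were -1.63 (SE 0.28), -1.26 (SE 0.30) and -1.33 (SE 0.32), with edgeR adjusted p-values of 3.0e-04, 0.0066 and 0.0072. BLM was at 43.9 and 34.1 CPM in normoxia and 0 and 8.47 CPM in hyperoxia, the 0 coming from the library that stood apart, and FANCF at 8.97 and 14.6 CPM in normoxia and 42.5 and 13.7 CPM in hyperoxia, the highest of its values coming from that library too.

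Across the comparisons with vehicle, with ATRA and untreated without hyperoxia untreated 1, 9 members were called lower in each, against 4.23% of the 14957 genes tested in all. They were BRCA1, BRCA2, BLM, FANCA, FANCD2, UBE2T, CLSPN, TOPBP1 and MSH6. The 17 members that edgeR called in none of these were BARD1, PALB2, RAD51C, RAD51AP1, XRCC3, EXO1, RAD50, FANCB, FANCC, FANCE, FANCF, FANCL, FANCM, ATM, ATR, CHEK2 and PMS2, of which DESeq2 called FANCM lower with ATRA.

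**Figure D4:**
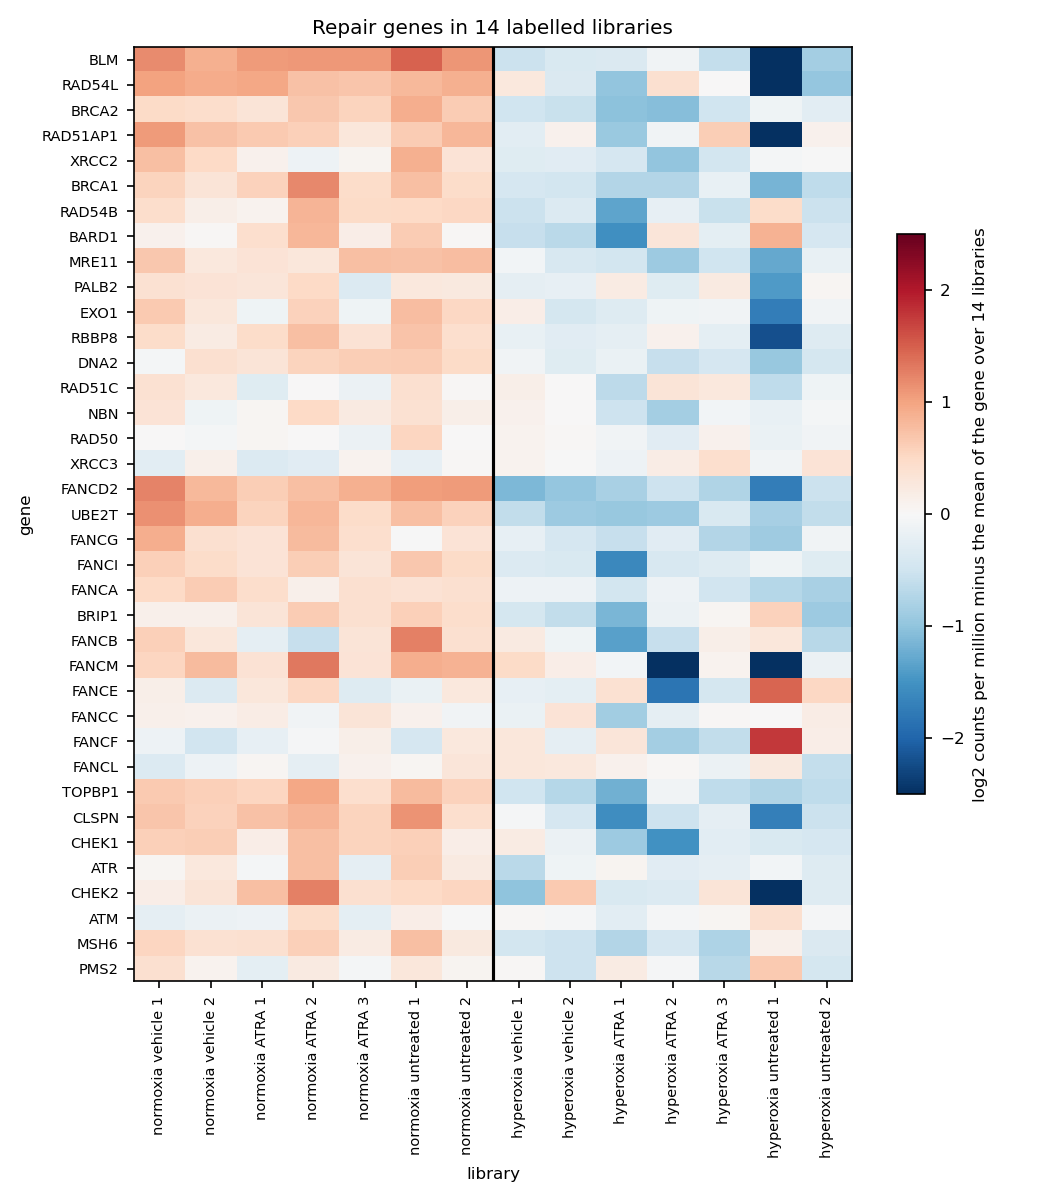
Log2 CPM of the 37 members in the 14 labelled libraries, less the mean of each gene, with normoxia on the left of the line and hyperoxia on the right. Hyperoxia libraries are mostly blue, and hyperoxia untreated 1 holds the darkest cells in both colours.

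Levels of different members were compared per length, as CPM per kilobase of annotated exons, in normoxia with vehicle. They ran from 19.2 for UBE2T (libraries at 17.6 and 20.8) to 0.747 for FANCL (0.690 and 0.804). After UBE2T came RAD50 at 13.9, TOPBP1 at 13.7 and EXO1 at 13.3, whose libraries overlapped, and MSH6 at 11.4. The exon length merges all annotated transcripts and so understates genes with many rare ones, such as FANCL with 37977 bases and ATM with 39184.

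Some members share their place in the genome with another counted gene. Of the 37, 18 overlap, by RefSeq (GRCh38.p14), a gene that has a row of its own in the counts, and for 9 that neighbour drew 10% or more of the member's own counts. MSH6, at chr2:47783145-47810101, overlaps FBXO11 on the other strand, with 58.0% as many counts, FANCI, at chr15:89243979-89317259, overlaps POLG with 104%, and FANCA, at chr16:89737549-89816647, overlaps ZNF276 with 79.8%. The others were RAD54L with LRRC41, RAD54B with FSBP, XRCC3 with KLC1, MRE11 with ANKRD49, FANCC with AOPEP and FANCL with VRK2. The labels describe stranded libraries, but whether reads were counted by strand is not given in the sources used here, so the values of these members are uncertain. FSBP lies on the same strand as RAD54B, so counting by strand would not separate that pair. PMS2 is uncertain for another reason. It had 876 counts over the 10 libraries, where its pseudogene rows PMS2P1, PMS2CL, PMS2P5 and PMS2P3 had 678, 264, 168 and 152, with fewer in 4 others.

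Other genes of these pathways and of the cell cycle are given beside the same shares of all genes, 8.81% lower and 8.68% higher with vehicle, 11.3% lower and 11.4% higher with ATRA. No test compared these lists with the members. Of 40 other genes of recombination and the Fanconi pathway, 0 were called with vehicle in edgeR, with 7 at an unadjusted p under 0.05 and 0 in DESeq2, and 6 were called lower with ATRA, namely GEN1, SMC6, RMI2, EME1, MND1 and UIMC1. Their median log2 fold change was -0.12 with vehicle and -0.07 with ATRA. The 4 with the smallest p-values with vehicle were RAD51D, a paralog of the recombinase, at -0.91 (SE 0.33), EME1, a subunit of a junction-cutting nuclease, at -0.65 (SE 0.24), TOP3A, the topoisomerase that works with BLM, at 0.59 (SE 0.22), and GEN1, a junction resolvase, at -0.67 (SE 0.25).

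Of 16 other checkpoint genes, 3 were called lower and 2 higher with vehicle, and 5 lower and 2 higher with ATRA. TIMELESS, a part of the fork protection complex, was at -1.14 (SE 0.16) and H2AX, the histone variant that marks breaks and is counted under its older symbol, at -1.12 (SE 0.20). HUS1, a subunit of the checkpoint clamp, was at 1.17 (SE 0.24) and RNF8, a ubiquitin ligase at breaks, at 1.13 (SE 0.30), both higher. The 3 other mismatch repair genes, MSH3, PMS1 and MLH3, ran from -0.42 to 0.07, with 0 called with vehicle in edgeR, 0 at an unadjusted p under 0.05 and 0 in DESeq2.

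In end joining, the other route of break repair, 3 of 16 genes were called lower with vehicle and 5 with ATRA, with medians of -0.33 and -0.25. POLQ, the polymerase of microhomology-mediated joining, was at -1.50 (SE 0.30) with vehicle, LIG3, a DNA ligase, at -1.14 (SE 0.23), XRCC5, a subunit of the Ku complex, at -0.46 (SE 0.14) and LIG4, the ligase of the classical route, at 0.84 (SE 0.39), the last without a call in edgeR (adjusted p = 0.15).

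Markers of the cell cycle and of p53 activity were read in the same way. Of 15 S phase markers, 8 were called lower with vehicle and 11 with ATRA, with medians of -0.82 and -0.85. The 4 with the smallest p-values with vehicle were MCM7 at -1.54 (SE 0.16), MCM5 at -1.58 (SE 0.25), MCM4 at -0.87 (SE 0.15) and MCM6 at -1.36 (SE 0.23), subunits of the replicative helicase, while E2F1 at -1.35 (SE 0.30) and GINS2 at -1.22 (SE 0.28) differed by more than MCM4. The list did not fall as one, and PCNA, TYMS and CCNE2 overlapped between the oxygen groups with vehicle. PCNA was at 193 and 169 CPM in normoxia and 181 and 151 CPM in hyperoxia. TYMS was at 114 and 91.8 CPM in normoxia and 95.2 and 89.7 CPM in hyperoxia. CCNE2 was at 10.5 and 8.93 CPM in normoxia and 11.7 and 8.35 CPM in hyperoxia. All 15 mitosis markers were called lower in both comparisons, with medians of -2.09 and -2.32, among them CCNB1 at -3.54 (SE 0.25), PLK1 at -3.68 (SE 0.31), CENPF at -2.09 (SE 0.18) and MKI67 at -2.40 (SE 0.21). All 12 p53 targets were called higher in both, with medians of 1.73 and 2.29, among them CDKN1A, the cyclin-dependent kinase inhibitor, at 3.34 (SE 0.14), MDM2 at 2.81 (SE 0.16), GADD45A at 4.62 (SE 0.30) and BTG2 at 3.25 (SE 0.26). The members' median of -0.60 with vehicle was thus nearer to that of the S phase markers than to that of the mitosis markers. The part of the cell cycle in the members' values was not tested.

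**Figure D5:**
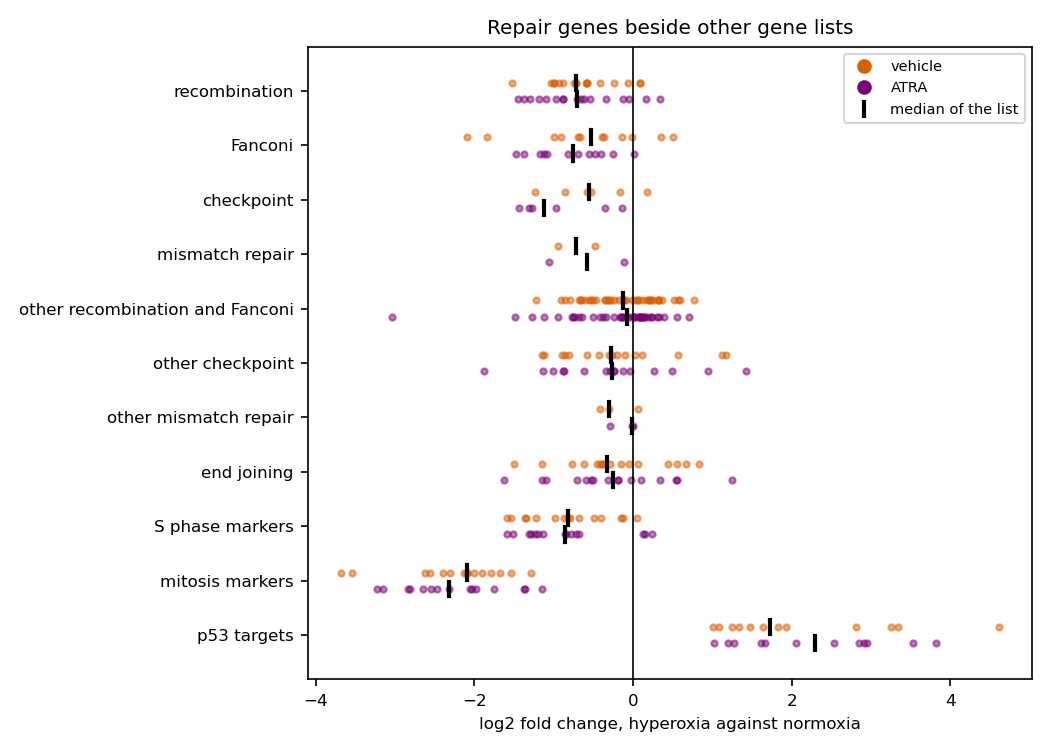
Log2 fold change in hyperoxia against normoxia of each gene of 11 lists, with vehicle and with ATRA, and the median of a list as a bar. The 4 lists of members lie mostly below 0, near the S phase markers, with the mitosis markers farther to the left and the p53 targets to the right of 0.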

How the data were processed

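Per the labels and the study's methods, the submitters' tools were Trimmomatic 0.38 for trimming, HISAT2 for alignment (genome hg38) and HTSeq for counting by symbol. The authors' deposited values are whole counts, 1 column per library. Rows that name no gene held 75.2% to 78.4% of the reads and were left out. The overlap and strand settings of the counting are not given in the sources used here.

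Counts were tested with edgeR 4.0.16 in R 4.3.3: filterByExpr (minimum count 10, minimum total 15), TMM normalization and a quasi-likelihood model of 4 groups over 10 libraries, or 6 groups over 14 for the untreated libraries. P-values were adjusted by Benjamini-Hochberg over all genes tested, with a threshold of 0.05. The SE is the absolute log2 fold change over the square root of F. CPM used TMM library sizes of the same libraries. The steps were tested on simulated data. DESeq2 1.42.0 and other settings were alternatives. Named members had the smallest p-values with vehicle: up to 6 recombination, 5 Fanconi, 4 checkpoint and both mismatch repair genes, with others given by their fold changes; other lists give up to 4. Exon lengths came from GENCODE 44. Members and lists were chosen with earlier results of these data known.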

Additional observations from a re-analysis of the deposited data

Results flagged for a closer look

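FANCC stood at 26.4 CPM in the library that the labels put in no group, a library the comparisons did not use, and its highest level among the 4 normoxia libraries without ATRA was 26.3 CPM on the same scaling. The excess is smaller than the spread among those libraries, and its cause was not tested.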

How the results depend on the processing

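No member that was called changed its direction under a setting tried, among the 17 followed. With vehicle the 12 members called lower became 20 with only the groups compared in the model, 7 with 14 libraries in 6 groups, 23 with vehicle and ATRA together and ATRA as a covariate, and 21, with 1 called higher, without the 3 ATRA libraries with few genes detected, a setting added after seeing the data. All genes moved with them, 16.6%, 4.64%, 17.7% and 14.6% being called lower in these settings against 8.81%. The spread is estimated from other libraries in each of these. With vehicle and untreated pooled the count was 17 (11.8% of all genes), and 22 (15.9%) without hyperoxia untreated 1, also added after seeing the data. The count was 11 by DESeq2, 12 with RLE size factors and 12 without a filter, with 9.47%, 9.03% and 5.57% of all genes. Leaving out each library in turn gave 5 to 13 with vehicle, 15 to 20 with ATRA and 4 to 21 untreated, while 4.69% to 10.9%, 8.80% to 11.5% and 3.27% to 29.1% of all genes were called lower. Members called higher untreated numbered 0 to 1, as did those called with ATRA against vehicle in hyperoxia. The median log2 fold change of the members with vehicle ran from -0.78 to -0.59 without a library, and was -0.80 with vehicle and untreated pooled (-0.75 without hyperoxia untreated 1) and -0.75 with ATRA as a covariate. The untreated count was 0 with only its own groups in the model.

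A replicate block of 3 library sets, read from the numbers in the titles, left 12 members called lower with vehicle, 20 with ATRA and 13 untreated, where 9.11%, 11.9% and 6.22% of all genes were. Deviations from the group means correlated between -0.02 and 0.06 over the 13 pairs of libraries in the same set and different groups. Over the 24 pairs in different sets and different groups they correlated between -0.06 and 0.03. Where a group has 2 libraries their deviations mirror each other, so these pairs are not independent. They do not settle whether the sets pair the libraries. FANCD2, UBE2T, TOPBP1 and MSH6 were called lower with vehicle under each of the 21 settings. The causes of these shifts were not tested.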

Other observations

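In 1 library the title names hyperoxia while the treatment label names adipogenic differentiation, so it was put in no group. It held 4415705 counts on genes, and every member had at least 21 counts. Of the 37 members, 30 (81.1%) were below all 4 normoxia libraries without ATRA, 6 within their range and 1 above it, on a scaling of all 15 libraries, where 32.4% of the 14957 tested genes were below and 31.7% above. Some were barely below, such as RAD50 and NBN, each within 0.1 CPM of the lowest of the 4. FANCD2 stood at 24.2 CPM there, BRCA1 at 48.9 CPM, BRCA2 at 13.5 CPM, UBE2T at 9.16 CPM, TOPBP1 at 34.5 CPM and MSH6 at 95.8 CPM. RAD50 stood at 145 CPM and XRCC3 at 38.8 CPM.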
